A study of Homo sapiens with 9 samples.

Results

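LINC00996 is a long intergenic non-coding RNA (lncRNA) gene on the plus strand of chromosome 7, and the genes within about 1.5 Mb of it on either side were examined in A549 cells transfected with a LINC00996 plasmid. All rows of the count table on chromosome 7 whose start lay in that window were taken, whatever their biotype, which gave 108 of 58735 rows. Apart from LINC00996 itself there were 107 neighbours, of which 51 started before it and 56 after it, and 56 rows were protein-coding. On GRCh38 the first of the 108 starts was chr7:148963315 and the last was chr7:151916331, and all 108 coordinates equalled those of GENCODE 29.

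A549 is an established cell line of lung adenocarcinoma. It was transfected with the jetPRIME reagent and a plasmid that overexpresses LINC00996, a plasmid that overexpresses AP001189.3, an lncRNA of chromosome 11, or the control plasmid, whose titles read PC3. RNA-seq was done on 3 libraries of each group, and the control libraries carry the treatment labels PC3.1, PC3.2 and PC3.3. Whether the libraries of a group came from separate transfections is not stated in the labels, so the p-values measure the spread between these libraries, which may be technical. All cultures were transfected and no group was left untransfected, and the share of cells that took up a plasmid is not stated in the labels. The sequence cloned into the LINC00996 plasmid is not given in the sources used here. In the deposited counts a transcript made from the plasmid cannot be told apart from a transcript made at the locus on chromosome 7.

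Some lncRNAs act on genes next to the site at which they are transcribed (in cis), and others act away from that site (in trans). An RNA transcribed from a plasmid is made away from its chromosomal locus, although in these counts the sources cannot be separated, and levels of the neighbours in such cells show whether they differ where the RNA is abundant. The neighbourhood of LINC00996 holds a cluster of KRAB and other zinc finger genes on the centromere side and, starting next to LINC00996, the GIMAP genes, which encode GTPases of the immunity-associated protein family known for their expression in lymphocytes. Farther on lie genes for a potassium channel (KCNH2), transporters, kinases and the NEDD8 regulator NUB1.

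The RNA that was raised and the promoters of the neighbours with the clearest differences are shown first. LINC00996 lies at chr7:150433654-150448140 (plus strand, GRCh38, ENSG00000242258), and its transcript LINC00996-201 in GENCODE 29 has 4 exons and 2043 bases. The first 236 bases, 5′ to 3′, are exon 1 (chr7:150433654-150433829) in lower case and the first 60 bases of exon 2 in capitals, so the change of case marks the splice junction that lies 8.7 kb apart in the genome.
LINC00996: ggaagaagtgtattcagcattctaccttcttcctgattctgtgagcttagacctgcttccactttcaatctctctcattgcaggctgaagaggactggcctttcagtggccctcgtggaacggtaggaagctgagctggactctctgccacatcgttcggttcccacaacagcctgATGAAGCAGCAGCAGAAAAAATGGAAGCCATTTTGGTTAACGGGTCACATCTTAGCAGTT
The promoter windows are from RefSeq (GRCh38.p14) and run from 250 bases before to 50 bases after the annotated start, and 54 of the 108 members had one. Capitals mark 6 motifs that were searched on both strands, the interferon-response core (GAAA and GAAA with 2 bases between), the STAT core TTCNNNGAA, the GC box GGGCGG, the CCAAT box, the TATA box TATAAA and the E-box CACGTG. Windows are given for LINC00996 (chr7:150433404-150433703, plus strand), GIMAP2 (chr7:150685456-150685755, plus strand) and NUB1 (chr7:151341562-151341861, plus strand).
LINC00996: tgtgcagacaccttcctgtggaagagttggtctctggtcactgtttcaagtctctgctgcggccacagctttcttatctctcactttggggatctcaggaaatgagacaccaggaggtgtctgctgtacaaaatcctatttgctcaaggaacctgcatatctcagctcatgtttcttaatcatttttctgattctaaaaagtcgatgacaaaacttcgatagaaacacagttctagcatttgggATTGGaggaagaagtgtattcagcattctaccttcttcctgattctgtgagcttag
GIMAP2: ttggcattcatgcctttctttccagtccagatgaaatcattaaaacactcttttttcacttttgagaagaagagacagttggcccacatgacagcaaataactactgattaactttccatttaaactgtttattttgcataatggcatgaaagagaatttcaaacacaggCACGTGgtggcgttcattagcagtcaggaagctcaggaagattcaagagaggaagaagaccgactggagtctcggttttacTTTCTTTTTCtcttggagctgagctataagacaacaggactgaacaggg
NUB1: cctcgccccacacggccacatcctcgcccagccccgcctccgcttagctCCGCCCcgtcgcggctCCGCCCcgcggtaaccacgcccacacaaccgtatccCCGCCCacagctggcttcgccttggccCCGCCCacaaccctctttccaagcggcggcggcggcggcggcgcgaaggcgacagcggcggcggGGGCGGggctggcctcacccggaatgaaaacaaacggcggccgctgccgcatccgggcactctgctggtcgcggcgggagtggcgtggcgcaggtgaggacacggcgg
The LINC00996 window held 1 CCAAT box, on the minus strand, and 34.6% of all 35116 RefSeq promoter windows hold that motif. The GIMAP2 window held 1 E-box, found in 7.26% of all windows, and 1 interferon-response core on the minus strand, found in 3.57% of all windows. The NUB1 window was rich in G and C (75.0%) and held 5 GC boxes, a motif found in 45.0% of all windows. A match is a run of letters in the window and is no evidence that a factor binds there.

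Levels per library are given as CPM, the count scaled to library size after TMM normalization, and a neighbour was called different when the Benjamini-Hochberg adjusted p of edgeR's quasi-likelihood test, taken over all genes tested, was under 0.05. Library totals ran from 15272450 to 18125447 counts, so that 3 counts, taken here as the floor of detection, stood for 0.166 to 0.196 CPM. LINC00996 replicate 1 stood apart from the other libraries of its group, with a chi-square per gene of 22.4 and 33.3 against them, while the same value between replicates 2 and 3 was 3.32. Its counts also leaned to GC-rich genes (rho of 0.428 over 16552 genes between a gene's GC content and its level relative to all libraries), as did those of the 3 AP001189.3 libraries (0.204 to 0.353). The control libraries were at -0.276 to -0.00351 and the other two LINC00996 libraries at -0.241 and -0.42. The tested genes of the neighbourhood are GC-rich, with a median of 58.0% against 48.4% over all tested genes. Among the markers examined, all 8 of the A549 epithelial list were detected (KRT8 at 3885 CPM or more in every library). Of 10 lymphocyte markers, 6 had 3 or fewer counts in every library, and 4 of them, CD3D, CD3G, CD2 and MS4A1, had no count. The summed lymphocyte list lay at 1.32 to 2.99 CPM in the control group, 2.11 to 4.21 CPM in the LINC00996 group and 1.51 to 2.08 CPM in the AP001189.3 group. The summed endothelial list, in which VWF, TEK and KDR had 3 or fewer counts in every library, lay at 11.8 to 13.1, 5.26 to 6.60 and 7.41 to 9.57 CPM in the same order of groups, and the A549 epithelial list at 8560 to 8677, 10315 to 13201 and 9296 to 9554 CPM. The endothelial sum was thus lowest with LINC00996 and the epithelial sum highest, and their part in the values that follow was not tested.

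LINC00996 itself was almost silent without its plasmid. The control libraries held 9, 8 and 4 counts and the AP001189.3 libraries 8, 7 and 8 counts, whereas the LINC00996 libraries held 5239, 4373 and 5952 counts. In CPM this was 0.419 ± 0.164 (SD, n = 3) in the control group, 295 ± 23.5 (n = 3) in the LINC00996 group and 0.471 ± 0.0149 (n = 3) in the AP001189.3 group. The LINC00996 libraries stood far above all the others, with a log2 fold change of 9.44 against control (SE 0.19, edgeR adjusted p = 3.86e-11) and of 9.27 against AP001189.3 (SE 0.16, edgeR adjusted p = 1.75e-11). The AP001189.3 plasmid left its own mark only in its own group, with 1660, 1931 and 2378 counts of AP001189.3 there and 2 or fewer in every other library.

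Much of the neighbourhood gave few or no counts. Of the 108 rows, 31 had no count in any library and 52 had 3 or fewer counts in every library, made up of 16 of the 56 protein-coding rows and 36 of the 52 others. A count of 0 is not a lack of expression in every row. The mRNA was purified with poly-T beads, which do not select the small RNAs among the rows (2 snRNA, 2 miRNA and 6 misc_RNA rows), and for rows whose exons lie within those of other genes, such as AC073111.3, MIR671, AC021097.1 and GIMAP1-GIMAP5, the count depends on how overlapping reads were assigned. One quiet stretch lay just after LINC00996. Between the end of LINC00996 and KCNH2, 497 kb farther on, lay 19 rows, and 17 of them had 3 or fewer counts in every library. The exceptions were GIMAP2 and TMEM176B, which reached 6 counts in 1 control library and 2 or fewer in the other libraries.

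The GIMAP family showed this most plainly. Of its 9 rows, GIMAP1, GIMAP4, GIMAP5, GIMAP6, GIMAP7, GIMAP8, the readthrough gene GIMAP1-GIMAP5 and the pseudogene GIMAP3P together had 5 counts over all 9 libraries, and GIMAP2 alone had enough to be tested. The exons of GIMAP1-GIMAP5 lie wholly within those of GIMAP1 and GIMAP5, so its own count says nothing of its level. GIMAP8, the nearest gene after LINC00996 at 17.0 kb from its start, had 1 count in 1 LINC00996 library and 2 counts in 1 AP001189.3 library. GIMAP7, at 81.2 kb, had none in any library. At this depth no rise of the 7 rows besides GIMAP2 and GIMAP1-GIMAP5 was detectable with the LINC00996 plasmid, in which each had 1 count or fewer per library.

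The rows nearest to LINC00996 on the other side were of mixed level. ZNF775 and AC073111.5, at 54.3 and 33.0 kb before the start of LINC00996, were expressed and are described with their values further on. Counts of the antisense row AC073111.1 were 4, 7 and 7 with the control plasmid, 4, 8 and 1 with LINC00996 and 6, 10 and 8 with AP001189.3, too few to be tested. AC073111.3 and AC073111.4 had no count in any library, but their exons overlap those of ZNF775, REPIN1 and AC073111.5 almost completely, so these counts say nothing of their level. REPIN1 at 65.5 kb was among the highest genes of the window. After LINC00996, next to GIMAP8 and GIMAP7, the pseudogenes AC073111.2 and ALDH7A1P3 had no count and STRADBP1 had 1 count or fewer per library.

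Per kilobase of gene length, the highest control levels among the neighbours were those of PDIA4, a protein disulfide isomerase of the endoplasmic reticulum, at 179 ± 13.7 CPM per kb (SD, n = 3) and of REPIN1, a zinc finger protein, at 45.9 ± 2.25 CPM per kb (n = 3). NUB1 at 27.5 ± 2.00, the anion exchanger SLC4A2 at 27.1 ± 1.66 and RHEB, the GTPase that activates mTORC1, at 27.1 ± 1.02 CPM per kb (n = 3 each) followed and differed from each other by less than their SD. In the LINC00996 group LINC00996 reached 136 CPM per kb, below PDIA4 (162 CPM per kb) and above every other member. Its control level was 0.193 CPM per kb.

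**Figure D1:**
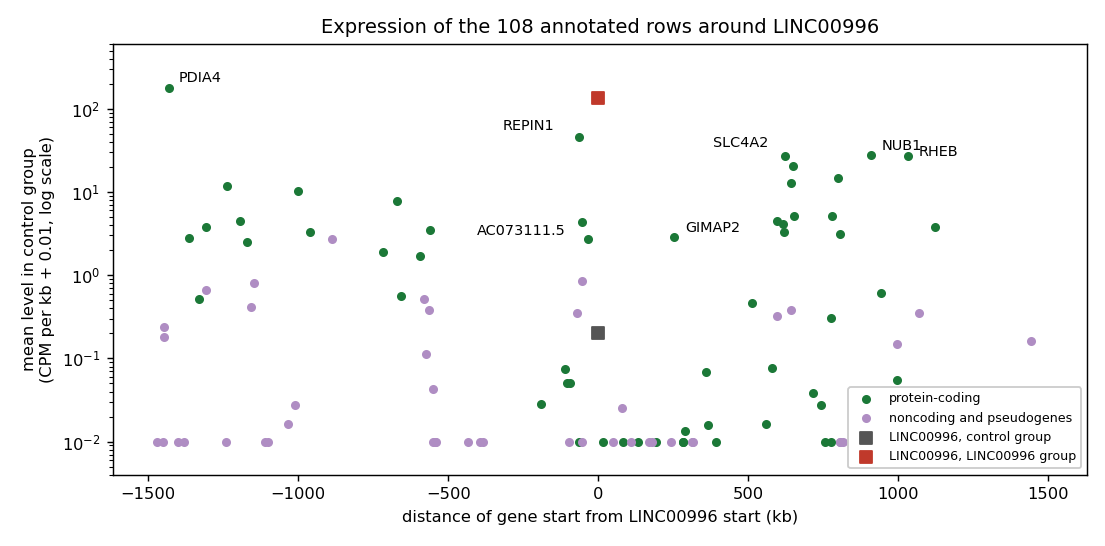
Mean control level (CPM per kb plus 0.01, log axis) of each of the 108 rows against the distance of its start from the start of LINC00996 (kb), with LINC00996 also drawn at its mean in the LINC00996 group. Rows at 0 sit on the bottom line, and after LINC00996 only GIMAP2 rises above it by much before KCNH2, while LINC00996 moves from 0.193 to 136 CPM per kb.

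The comparison of LINC00996 with control asks whether neighbours differ in the libraries where LINC00996 is abundant, whatever the source of that RNA. Of 37 neighbours tested 7 were called, 2 higher and 5 lower. This was 18.9%, against 22.3% of all 16097 genes tested, so the neighbours as a group were called no more often than genes elsewhere. The remaining genes of chromosome 7 stood at 23.2% of 755. Of all genes tested, 10.7% were called higher and 11.6% lower. The median log2 fold change was 0.01 for the neighbours and 0.01 for all genes tested, with 19 neighbours above 0 and 18 below. Without LINC00996 replicate 1 the count was 12 of 39, of which 2 were higher and 10 lower, with a median of -0.09 (0.08 without LINC00996 replicate 2 and 0.10 without replicate 3), while the share of all genes called also went up, to 33.2%. It was 4 without control replicate 1, control replicate 2 or LINC00996 replicate 2, where 12.6%, 11.6% and 15.0% of all genes were called. With an offset for GC content, chosen after the data were seen, 13 were called, 4 higher and 9 lower, beside 37.4% of all genes. The 70 neighbours left out of the test were those with too few counts for edgeR's filter, and nothing can be said of their response.

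The neighbours called lower were the zinc finger genes ZNF467 and REPIN1, the zinc finger gene AC073111.5, GIMAP2 and NUB1, and those called higher were CDK5 and ABCB8. Only 4 neighbours with a start within 500 kb had enough counts to be tested, namely REPIN1, ZNF775, AC073111.5 and GIMAP2. These are the tested neighbours closest to LINC00996. All 4 had a log2 fold change below 0 (median -0.63), and 3 of the 4 were called lower, where 11.6% of all genes tested were called lower. Beyond 500 kb 4 of 33 were called (12.1%), with a median of 0.05. No test was made of this difference between near and far genes, the groups of 4 and 33 are of unequal size, and the distance limits were among several that were looked at. As values by distance, 2 of 3 tested neighbours were called under 250 kb, 4 of 16 from 250 to 750 kb and 1 of 18 beyond 750 kb. Of all genes tested, 22.3% were called in either direction.

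**Figure D2:**
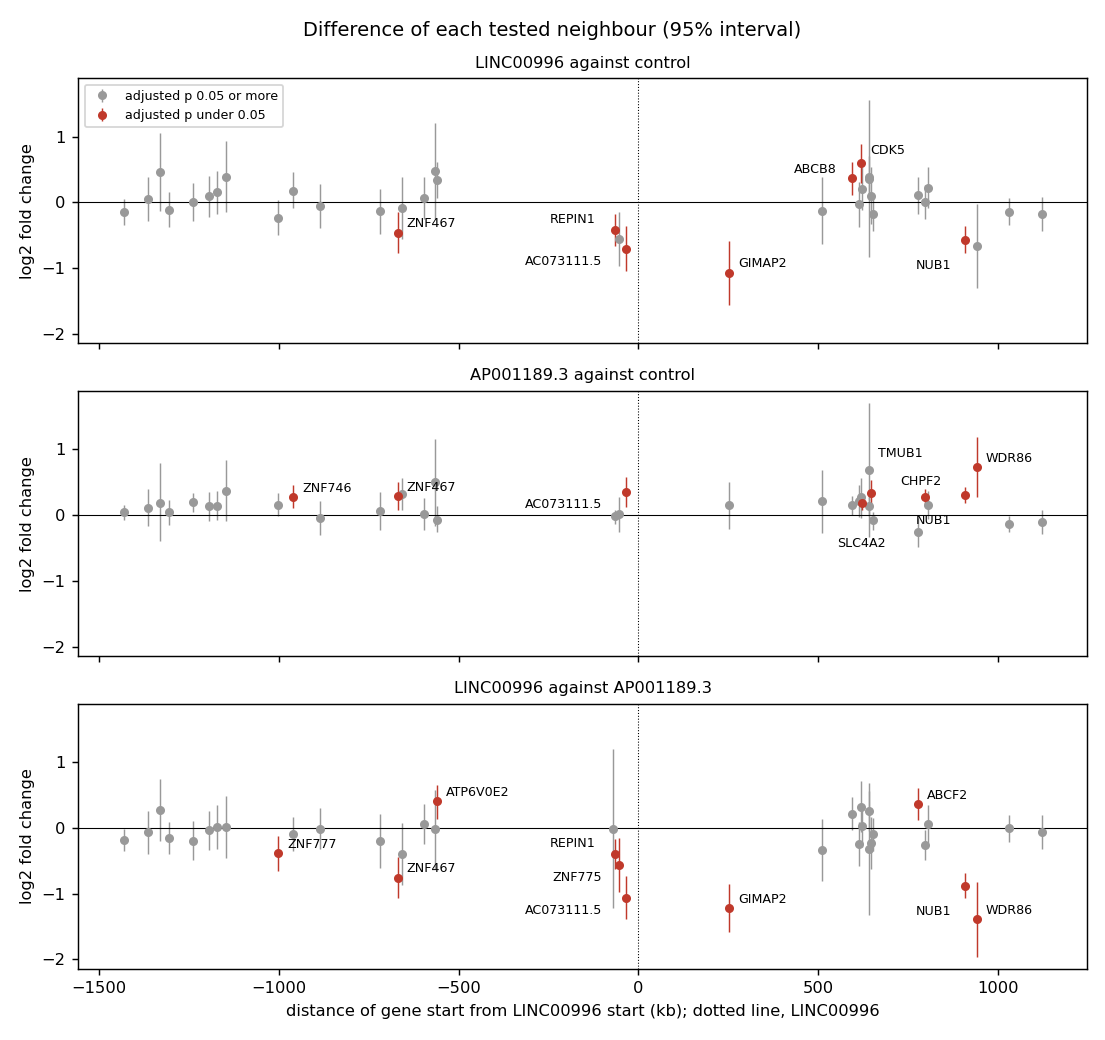
Log2 fold change (points) with 95% interval (bars) of every tested neighbour against the distance of its start from that of LINC00996 (kb), one panel per comparison, with neighbours past an adjusted p of 0.05 in red. In the top and bottom panels the points nearest to the dotted line of LINC00996 lie below 0, from -0.42 to -1.07 against control, while in the middle panel they lie between -0.02 and 0.35.

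AC073111.5 (ENSG00000284691, chr7:150400702-150412470, plus strand) was the closest expressed gene, ending 21184 bases before LINC00996 on the same strand, and is annotated as a zinc finger protein (LOC728743 in RefSeq at the same coordinates). Its levels were 11.2, 11.9 and 12.0 CPM in the control libraries, 8.65, 6.85 and 6.06 CPM in the LINC00996 libraries and 14.2, 15.5 and 15.3 CPM in the AP001189.3 libraries. The 3 groups did not overlap, with the LINC00996 libraries lowest and the AP001189.3 libraries highest. Against control it was 1.63-fold lower with LINC00996 (log2 fold change -0.71, SE 0.16, edgeR adjusted p = 0.00818). Without LINC00996 replicate 1, the highest library of its group, the log2 fold change was -0.86. Of its exonic bases, 10.1% are shared with AC073111.4, which had no count.

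ZNF775, a zinc finger gene at chr7:150379335-150398631 (plus strand, ENSG00000196456), held 11.3, 10.02 and 9.43 CPM in the control group, 8.10, 7.80 and 5.14 CPM in the LINC00996 group and 11.3, 10.6 and 9.03 CPM in the AP001189.3 group. Every LINC00996 library lay below every other library, but the difference from control just missed the threshold (log2 fold change -0.55, SE 0.18, edgeR adjusted p = 0.0504, 95% interval -0.96 to -0.15). REPIN1 (ENSG00000214022, chr7:150368189-150374044, plus strand), first described as an initiator of replication, held 225, 211 and 204 CPM in the control group, 187, 148 and 145 CPM in the LINC00996 group and 214, 202 and 214 CPM in the AP001189.3 group. The LINC00996 libraries were again the lowest, 1.33-fold under control (log2 fold change -0.42, SE 0.11, edgeR adjusted p = 0.0176). Replicate 1, which leans to GC-rich genes, was the highest LINC00996 library for AC073111.5, ZNF775 and REPIN1, and its part in these values was not tested beyond leaving it out. An antisense row over REPIN1, AC005586.1, had 2, 3 and 5 counts in the control libraries against 14, 7 and 12 with LINC00996 and 13, 2 and 16 with AP001189.3, and was not tested against control. It shares 98 exonic bases with REPIN1, 17.0% of its own and 2.11% of those of REPIN1, and reads there cannot be assigned to either.

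GIMAP2 (ENSG00000106560, chr7:150685697-150693641, plus strand), whose protein is a GTPase found on lipid droplets, starts 252.0 kb after LINC00996. It held 5.12, 7.90 and 5.06 CPM in the control libraries, 2.85, 3.04 and 2.70 CPM in the LINC00996 libraries and 6.73, 6.44 and 6.79 CPM in the AP001189.3 libraries. The LINC00996 libraries lay close together and below all the others, while control replicate 2 was higher than the other control libraries. It was 2.10-fold lower with LINC00996 than with the control plasmid (log2 fold change -1.07, SE 0.22, edgeR adjusted p = 0.00527), the lowest log2 fold change of the 37 neighbours. Without control replicate 2 the log2 fold change was -0.83, and it passed the threshold whichever library was left out. The control mean of 6.03 ± 1.63 CPM (SD, n = 3) came from 87 to 127 counts per library. The longest run that the GIMAP2 transcripts share with those of LINC00996 is 31 bases. This is the longest shared run in the sense direction among the neighbours, with 29 bases for NUB1 and ZNF783.

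NUB1 (ENSG00000013374, chr7:151341699-151378449, plus strand), an interferon-inducible adaptor that directs NEDD8 and its conjugates to the proteasome, starts 908.0 kb after LINC00996. It held 155, 155 and 136 CPM in the control libraries, 95.7, 99.8 and 105 CPM in the LINC00996 libraries and 178, 183 and 190 CPM in the AP001189.3 libraries. The groups did not overlap, and the spread within each was small against the distance between them. It was 1.48-fold lower with LINC00996 than in control (log2 fold change -0.57, SE 0.09, edgeR adjusted p = 0.00134).

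CDK5, a kinase best known from neurons, lies 620.2 kb after LINC00996 and held 9.53, 9.71 and 9.72 CPM in the control libraries against 15.9, 15.1 and 12.9 CPM with LINC00996. It rose 1.51-fold (log2 fold change 0.60, SE 0.14, edgeR adjusted p = 0.00829). Its levels with AP001189.3 were 10.2, 15.2 and 9.57 CPM, so that AP001189.3 replicate 2 lay among the LINC00996 libraries and the other two near control. CDK5 and SLC4A2 lie on opposite strands and share 331 exonic bases, 11.3% of those of CDK5. SLC4A2 is over 10 times as abundant per library by counts in each group, and the stated library preparation marks no strand, so reads in the shared part cannot be assigned to either. ABCB8, a transporter of the mitochondrial inner membrane 594.8 kb after LINC00996, held 43.5, 39.0 and 42.6 CPM in the control libraries against 61.9, 51.5 and 47.7 CPM with LINC00996. This was a rise of 1.29-fold (log2 fold change 0.37, SE 0.12, edgeR adjusted p = 0.0439) with a value of 0.25 without LINC00996 replicate 1.

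ZNF467, a zinc finger gene 669.5 kb before LINC00996, held 23.3, 19.7 and 20.3 CPM in the control group, 18.0, 13.9 and 14.2 CPM in the LINC00996 group and 27.7, 21.8 and 28.0 CPM in the AP001189.3 group. It was 1.38-fold lower with LINC00996 than in control (log2 fold change -0.46, edgeR adjusted p = 0.035). For the zinc finger and KRAB genes as a group, a list that does not hold AC073111.5, 14 were tested, and 2 were called lower and 0 higher with LINC00996 (14.3%, against 22.3% of all genes tested), with 7 values on each side of 0 and a median of -0.02. Those that were not called included ZNF786, ZNF425, ZNF398, ZNF282, ZNF212 and ZNF783 in the cluster farthest from LINC00996, whose log2 fold changes lay between -0.11 and 0.16 except for ZNF425 with 0.46 (edgeR adjusted p = 0.254). Among the channels, transporters and membrane proteins 1 of 6 was called (ABCB8, 16.7%), among the signalling genes 1 of 5 (CDK5), and of the 3 secretory genes PDIA4, CHPF2 and SSPO none, with values of -0.14, 0.01 and -0.08.

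**Figure D3:**
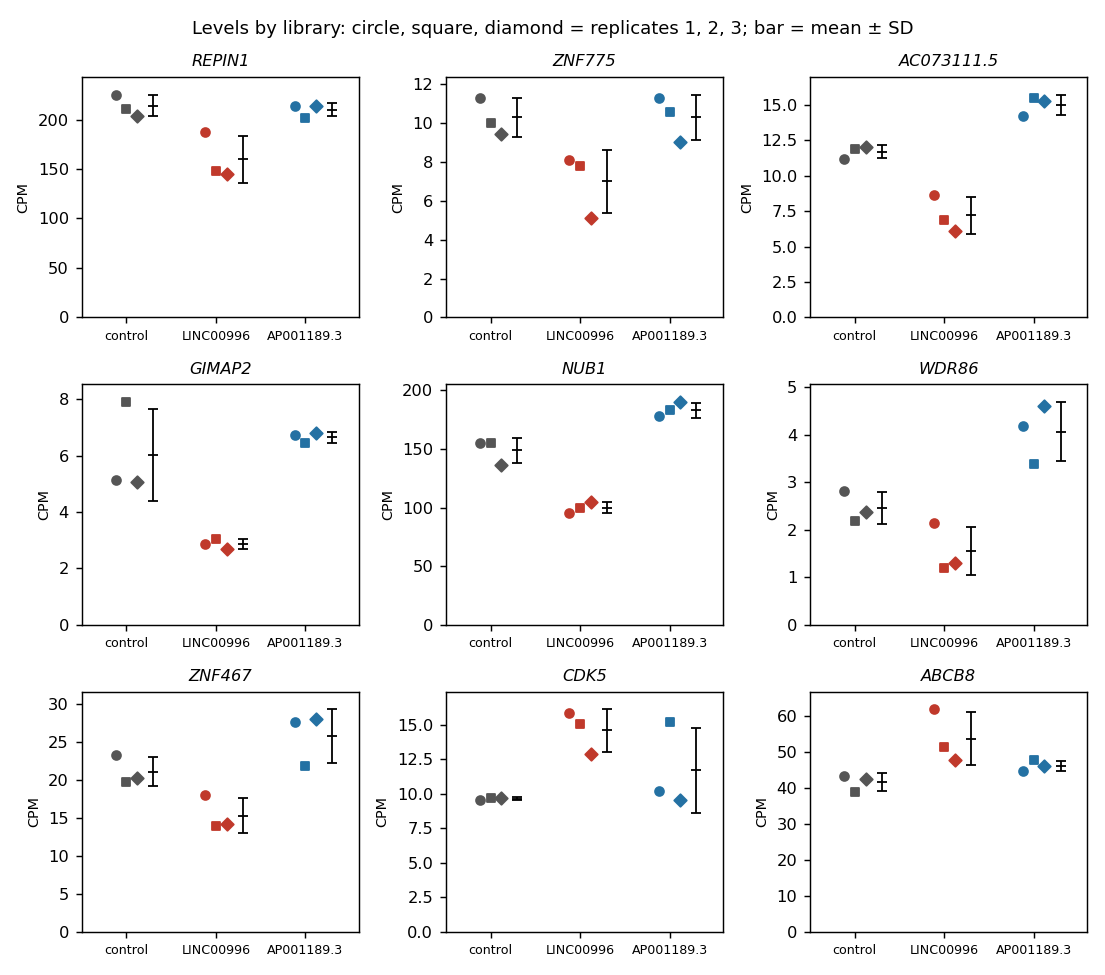
Level (CPM, axis from 0) of 9 neighbours in each of the 9 libraries, with the mean and SD of each group beside its points. For REPIN1, ZNF775, AC073111.5, GIMAP2, NUB1, WDR86 and ZNF467 all 3 LINC00996 libraries lie below all control libraries, and for CDK5 and ABCB8 they lie above them. ZNF775 and WDR86 were not called against control. Among tested neighbours not drawn, ATP6V0E2 and ZNF425 also lay wholly above control and RHEB and PRKAG2 wholly below, and none was called. The share of all genes without such overlap was not counted.

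The AP001189.3 libraries show what the same neighbours did when another lncRNA was overexpressed from a plasmid. Against the same control libraries 37 neighbours were tested and 8 were called, all of them higher, which is 21.6% against 19.8% of all 16023 genes tested. The genes called higher made up 11.4% of all genes tested and those called lower 8.49%. The neighbours called higher were ZNF746, ZNF467, AC073111.5, SLC4A2, TMUB1, CHPF2, NUB1 and WDR86. The neighbours' median was 0.16, against -0.00 over all genes, with 30 above 0 and 7 below. The AP001189.3 libraries also had the higher levels of GC-rich genes given above. With the GC offset the neighbours' median was 0.00, and 5 were called, 2 higher and 3 lower. When all 9 libraries were fitted together 0 of 39 were called by edgeR (8 at an unadjusted p under 0.05), where 2.64% of all 16560 genes tested were called.

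NUB1 was the neighbour with the smallest adjusted p, at 1.24-fold higher than control (log2 fold change 0.30, SE 0.06, edgeR adjusted p = 0.000346). CHPF2, an enzyme of chondroitin synthesis, held 66.1, 64.6 and 56.8 CPM in the control group and 76.1, 76.5 and 72.8 CPM in the AP001189.3 group. Its log2 fold change was 0.27 (SE 0.07, edgeR adjusted p = 0.00498) and 0.08 with the GC offset. WDR86, a WD-repeat gene, held 2.82, 2.18 and 2.36 CPM in the control group and 4.19, 3.38 and 4.61 CPM in the AP001189.3 group (log2 fold change 0.73, edgeR adjusted p = 0.0217), a difference of 0.41 that did not pass with the GC offset (edgeR adjusted p = 0.237). WDR86 overlaps NUB1 on the opposite strand by 314 exonic bases (7.76% of its own), and its 19 to 76 counts per library stand against 1574 to 3136 for NUB1, so how much of its signal came from NUB1 reads cannot be told apart. AC073111.5 was higher with AP001189.3 (log2 fold change 0.35, SE 0.11, edgeR adjusted p = 0.0276), but 0.25 with the GC offset and no longer past the threshold (edgeR adjusted p = 0.138). GIMAP2 with 0.15 (95% interval -0.21 to 0.50, edgeR adjusted p = 0.61), REPIN1 with -0.02 (-0.13 to 0.08, edgeR adjusted p = 0.792) and ZNF775 with 0.01 (-0.26 to 0.27, edgeR adjusted p = 0.985) did not pass. With the GC offset REPIN1 moved to -0.24 and passed (edgeR adjusted p = 0.000439), ZNF775 moved to -0.31 without passing (edgeR adjusted p = 0.0961), and ZNF467 moved from 0.29 to 0.01. ZNF746, SLC4A2 and TMUB1 had log2 fold changes of 0.27, 0.18 and 0.33, and with the GC offset 0.24, -0.01 and 0.06, of which only that of ZNF746 passed. NUB1 and CHPF2 passed whichever library was left out, and each of the other 6 lost its call without at least 3 of the 6 libraries in turn. Without control replicate 2 the 2 neighbours called were NUB1 and CHPF2.

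The difference between the lncRNA plasmids was tested directly, and it shares its LINC00996 libraries with the first comparison and its AP001189.3 libraries with the second. Of 38 neighbours tested, 10 were called, 2 higher and 8 lower with LINC00996, which is 26.3% against 21.4% of all 16095 genes tested. The lower share was 12.1% over all genes and the higher share 9.38%. The neighbours' median was -0.10 and that of all genes 0.02. With the GC offset the medians were -0.02 and 0.05, and 12 neighbours were called, 6 higher and 6 lower, beside 37.1% of all genes. The neighbours' median was -0.03 with library size scaling (all genes 0.08) and -0.04 with the gene-length offset (all genes 0.06). Within 500 kb 5 were tested and 4 were called lower. All 5 values were below 0, but that of the low-count antisense row AC005586.1, which was not called, was only -0.02. Beyond 500 kb 6 of 33 were called. Without LINC00996 replicate 1 the count was 18 of 39, of which 2 were higher and 16 lower, with 41.6% of all genes called. It was 5 without LINC00996 replicate 2, AP001189.3 replicate 1 or AP001189.3 replicate 3 and 6 without AP001189.3 replicate 2, with 11.2% to 12.8% of all genes called. GIMAP2, AC073111.5, NUB1, WDR86 and ZNF467 passed under all 14 alternatives, whereas REPIN1, ZNF775, ZNF777, ATP6V0E2 and ABCF2 each lost the call without at least 4 of the 6 libraries in turn.

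The genes called lower were ZNF777, ZNF467, REPIN1, ZNF775, AC073111.5, GIMAP2, NUB1 and WDR86. GIMAP2 was 2.33-fold lower with LINC00996 than with AP001189.3 (log2 fold change -1.22, SE 0.17, edgeR adjusted p = 0.000388), AC073111.5 was 2.09-fold lower (-1.06, SE 0.15, edgeR adjusted p = 0.000505) and NUB1 1.83-fold lower (-0.88, SE 0.09, edgeR adjusted p = 3.45e-05). WDR86 stood at -1.39 (SE 0.26, edgeR adjusted p = 0.00316) with the overlap named above, although its difference between LINC00996 and control did not pass (-0.66, edgeR adjusted p = 0.133). REPIN1 stood at -0.40 on the log2 scale (edgeR adjusted p = 0.0189), ZNF775 at -0.56 (edgeR adjusted p = 0.0487), ZNF467 at -0.76 (edgeR adjusted p = 0.00328) and ZNF777 at -0.39 (edgeR adjusted p = 0.0385). With the GC offset REPIN1 stood at -0.22, and ZNF775 and ZNF777 lost their calls at -0.32 and -0.22 (edgeR adjusted p of 0.0986 and 0.0865). The genes called higher were ATP6V0E2, a subunit gene of the proton pump V-ATPase, at 0.40 (edgeR adjusted p = 0.0319), and ABCF2, of the ABC-F proteins, at 0.36 (edgeR adjusted p = 0.04). ABCF2 shares 45.8% of its exonic bases with AC021097.2 on the same strand. CDK5 and ABCB8, which were called against control, had values of 0.32 (95% interval -0.06 to 0.71) and 0.21 (-0.03 to 0.46) here and did not pass. CDK5 passed with the GC offset (0.45, edgeR adjusted p = 0.0301) and without AP001189.3 replicate 2 (0.56, edgeR adjusted p = 0.049), and stood at 0.20 without AP001189.3 replicate 3.

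Side by side and without the GC offset, GIMAP2, REPIN1 and ZNF775 had means near those of control with AP001189.3 (6.65, 210 and 10.3 CPM against 6.03, 214 and 10.3 CPM) and lower means with LINC00996 (2.87, 160 and 7.01 CPM). For GIMAP2 the log2 difference between AP001189.3 and control was 0.39 without control replicate 2, its highest control library, which did not pass (edgeR adjusted p = 0.169). AC073111.5, NUB1 and ZNF467 had higher means than control with AP001189.3 and lower means with LINC00996. For AC073111.5, CDK5, GIMAP2 and NUB1 the difference between LINC00996 and control passed the threshold under all 14 other ways of processing that were run. REPIN1 passed in 11 of them, ABCB8 in 10 and ZNF467 in 9, and ZNF775, which was not called, passed in 7, with log2 fold changes from -0.68 to -0.37 (-0.37 without LINC00996 replicate 3). The call of REPIN1 was lost without control replicate 1, control replicate 2 or LINC00996 replicate 2 (edgeR adjusted p of 0.0668 to 0.0858), that of ABCB8 without any 1 control library or LINC00996 replicate 2 (0.084 to 0.191), and that of ZNF467 without any 1 library other than LINC00996 replicate 1 (0.0724 to 0.143). The log2 fold change of GIMAP2 ranged from -1.19 to -0.83, that of AC073111.5 from -0.86 to -0.59, that of NUB1 from -0.63 to -0.53 and that of CDK5 from 0.53 to 0.68.

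**Figure D4:**
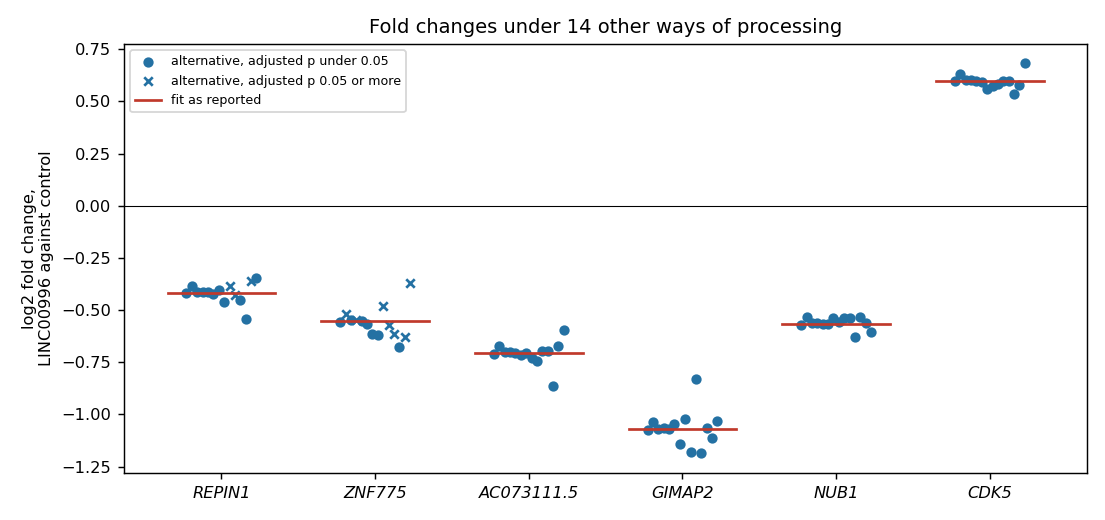
Log2 fold change between LINC00996 and control of the 4 tested neighbours within 500 kb, NUB1 and CDK5 under 14 other ways of processing (circles past an adjusted p of 0.05, crosses not) and as reported (red line). No value crosses 0, and crosses appear for REPIN1 and ZNF775 only.

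The neighbourhood of the other overexpressed lncRNA gave a point of reference. Among the genes within 500 kb of AP001189.3 on chromosome 11, 14 were tested and 0 were called by edgeR or DESeq2 between AP001189.3 and control (2 at an unadjusted p under 0.05 by each), and 4 of the same 14 (28.6%) were called between LINC00996 and control, where 19.8% and 22.3% of all genes were called. Within 1.5 Mb of AP001189.3 34 genes were tested, and 2 (5.88%) were called with AP001189.3 and 8 (23.5%) with LINC00996. No test of the difference between these neighbourhoods was made.

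At the edges of the window, the tested genes just inside were PDIA4 at 1430.6 kb before LINC00996 (log2 fold change -0.14 with LINC00996 against control) and PRKAG2, a subunit gene of AMPK, at 1122.5 kb after it (-0.17), and neither was called. Just outside lay EZH2, a histone methyltransferase gene, with 0.12 (edgeR adjusted p = 0.42), and GALNT11, a glycosyltransferase gene 1592.0 kb after LINC00996, with 0.56 (edgeR adjusted p = 0.00369).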

How the data were processed

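RNA-seq of 9 A549 libraries was analysed, 3 each with the control, LINC00996 and AP001189.3 plasmids. According to the methods and submitters' notes, the authors aligned reads with HISAT2 2.0.5 to GRCh38 and counted them with featureCounts 1.5.0-p3. Counts were deposited as whole numbers, not normalized, and all 9 columns were used. Deposited FPKM files were not used. Counting by strand is not stated, and reads of overlapping genes cannot be told apart. Library totals were 15272450 to 18125447 counts, and floors cover counting error only.

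Each comparison used its 6 libraries and edgeR 4.0.16 (R 4.3.3) with filterByExpr, TMM and the robust quasi-likelihood test, two-sided, adjusted over all genes tested. SEs and 95% intervals come from its F statistic. The procedure was tested on counts simulated with the means and spread of the control libraries, without an outlying library or a GC trend. That test therefore does not cover the spread added by LINC00996 replicate 1. Genes were named if called in any of the 3 comparisons, in the GIMAP family, among the 5 rows nearest to LINC00996 on either side, or among the 5 highest control levels per length. Edge genes, TMEM176B, AC005586.1, genes used as group examples and the promoters shown were chosen after values were seen. The window, lists and groups were chosen with earlier results of these data known. Alternatives were DESeq2 1.42.0, library size scaling, other count filters, 1 fit of all 9 libraries, a replicate block, a gene-length offset, other thresholds and distances, leaving out each library, and a GC-content offset (loess span 0.75) added after the data were seen. Of 5 myeloid markers 3 had 3 or fewer counts in every library, with sums of 10.1 to 11.2 (control), 11.2 to 14.0 (LINC00996) and 7.70 to 14.6 CPM (AP001189.3).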

Additional observations from a re-analysis of the deposited data

How the results depend on the processing

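LINC00996 itself stayed called under every alternative run for it (log2 fold change 9.14 to 9.65 against control). The number of called neighbours moved more. Between LINC00996 and control it went from 7 to 13 with the GC-content offset (4 higher, 9 lower), to 4 at an adjusted p under 0.01 (37.4% and 11.3% of all genes called), to 1 when a log2 change of 1 or more in either direction was also asked for (4.72%), and to 3 within 500 kb and 2 within 250 kb, where 4 and 3 neighbours were tested. Leaving out 1 library gave 4 to 12, with 4 without control replicate 1, control replicate 2 or LINC00996 replicate 2 and 12 without LINC00996 replicate 1. Between AP001189.3 and control it went from 8 to 0 in 1 fit of all 9 libraries, 5 with the GC-content offset (2 higher, 3 lower), 2 at an adjusted p under 0.01 (2.64%, 15.3% and 10.9% of all genes), and 0 with the fold limit (0.986%). It was 1 of 4 tested within 500 kb and 1 of 3 within 250 kb, beside 19.8% of all genes. Leaving out 1 library (11.6% to 21.9% of all genes) gave 2 to 8, with 2 without control replicate 2, 5 without control replicate 3, 4 without AP001189.3 replicate 1 and 4 without AP001189.3 replicate 3. Between LINC00996 and AP001189.3 it went from 10 to 5 at an adjusted p under 0.01 (1766 of all 16095 genes) and 3 with the fold limit (4.14%). It was 4 of 5 tested within 500 kb and 3 of 4 within 250 kb, beside 21.4% of all genes. Leaving out 1 library gave 5 to 18, with 18 without LINC00996 replicate 1, 6 without AP001189.3 replicate 2, and 5 without LINC00996 replicate 2, AP001189.3 replicate 1 or AP001189.3 replicate 3. Stricter limits and shorter windows leave fewer genes by construction, and for the other moves the cause was not tested.

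Some differences between AP001189.3 and control changed sign. SLC4A2, called at 0.18, went to -0.01 with the GC-content offset. REPIN1 went to 0.01 without control replicate 1 and 0.00 without AP001189.3 replicate 2 (from -0.06 to 0.01 over the libraries left out), and kept its sign with the GC-content offset at -0.24. ZNF775 went to -0.02 with library size scaling, -0.08 with the gene-length offset, -0.31 with the GC-content offset, and -0.01, -0.05, -0.07 and -0.02 without control replicates 2 and 3 and AP001189.3 replicates 1 and 2 (up to 0.09 over the libraries left out).

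Replicate numbers of different groups were not paired in the labels. The correlation of same-numbered libraries ran from -0.0205 to 0.15 and was above 0.1 in 1 of the 9 pairs. That of libraries with different numbers ran from -0.123 to 0.0451, so some sharing by replicate number may be present. With a replicate block, 9, 9 and 10 neighbours were called in the 3 comparisons, in the order above, beside 28.0%, 21.6% and 23.4% of all genes. Genes at a few counts per library limit what can be seen: with 3 counts as the floor, no change could be measured for 52 of the 108 rows.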
